A study of Mus musculus with 18 samples.

Results

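The 6 genes of the mouse IκB family were followed by their names in the merged annotation: Nfkbia, Nfkbib and Nfkbie, which encode the classical inhibitors IκBα, IκBβ and IκBε, and Nfkbiz, Nfkbid and Bcl3, which encode the atypical members IκBζ, IκBNS and BCL3. They are 6 of 23212 named genes. The family was taken whole by gene name, with earlier results of these data known. An assembled transcript was found for 5 of the 6, and the same 5 passed the filter on low values (at least 1 FPKM in at least 2 libraries) that 12364 genes passed in all. FPKM counts fragments per kilobase of transcript per M (mega) mapped fragments.

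Classical IκB proteins hold NF-κB dimers in the cytoplasm until the IκB kinase complex marks them for ubiquitination and breakdown by the proteasome. Nfkbia is itself a target of NF-κB, so that newly made IκBα takes NF-κB off the DNA and back to the cytoplasm, a negative feedback loop well known in fibroblasts given TNFα. The atypical members are mainly nuclear, bind dimers that hold the products of Nfkb1 or Nfkb2, and raise or lower the transcription of particular NF-κB targets.

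Transcripts were sequenced in immortalized mouse embryonic fibroblasts that lack rela and received mouse RelA from a retroviral vector. RelA(TA2) cells carry RelA altered in the TA2 part of its activation domain, through which it contacts the TAZ1 domain of the co-activators CBP and p300. RelA(Ser276Ala) cells, labelled RelA(S276A), carry RelA with alanine in place of the serine whose phosphorylated form contacts the KIX domain, and RelA(wt) cells, labelled WT, carry unaltered RelA. Each line was taken without TNFα (0 h) and after 1 h and after 2 h with TNFα at 5 ng/ml, in 2 libraries per condition that the study describes as independent replicates, which gives 9 conditions and 18 libraries. The rela deletion, the immortalization and the vector were common to all groups, and whether a line is a single clone is not given in the sources used here.

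Rela message lay at 315 to 366 FPKM in the 6 RelA(TA2) libraries (median 328), at 174 to 212 FPKM in the 6 RelA(Ser276Ala) libraries (median 180.5) and at 156 to 187 FPKM in the 6 RelA(wt) libraries (median 172). These values do not tell the forms of RelA apart and do not measure protein. On immunoblots the authors found the Ser276Ala form less abundant than unaltered RelA. They propose that this shortage may account for the reduced Nfkbia message they measured after TNFα in that line. The part of this lower protein, or of the higher Rela message of RelA(TA2) cells, in the differences below was not tested. All 8 fibroblast markers reached 1 FPKM, with a summed level of 4129 to 4802 FPKM in RelA(TA2), 3485 to 4152 FPKM in RelA(Ser276Ala) and 3745 to 4620 FPKM in RelA(wt) libraries. Of 8 macrophage symbols 4 reached 1 FPKM in a library (summed level 15.6 to 38.5 FPKM), and Ptprc, Itgam and Adgre1, also sought under its older symbol Emr1, were at 0 in all 18. Of 4 endothelial markers 2 were found (summed level 1.12 to 12.3 FPKM), with Pecam1 and Tek at 0, and the 4 epithelial and 4 T cell markers were at 0 throughout. Libraries held an estimated 25.3 to 31.2 M mapped fragments, and across genes, which are not independent replicates, the libraries of a condition had a Pearson's r of 0.899 to 0.917. In such bulk samples fewer cells of a type and less RNA per cell cannot be told apart.

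Because the authors assembled transcripts in each library separately, a gene can be 1 full transcript in one library and several short pieces in another, and a short piece has a high FPKM for few fragments. Each gene was therefore measured in a pair of ways. The main measure is the FPKM summed over its transcripts, tested with limma on log2(FPKM + 0.5). The other is the number of fragments. It was recovered from FPKM and its confidence limit where an assembled gene held a single transcript. For other transcripts it was estimated from FPKM and the fragments per FPKM of transcripts of similar length. Both are called recovered fragments. They were tested with limma on the log2 of fragments per M fragments in genes. They are shown as fragments per kb of exon per M mapped fragments, here called fragments per kb. All fragments of the transcripts of a gene count, also those outside its annotated exons, while fragments that were not assembled are missing. Nfkbia in RelA(wt) replicate 1 at 1 h, for example, was a transcript of 2570 bases, counted over 1579 exonic bases. Recovered fragments thus do not remove every effect of the assembly. Adjusted p cover all 12364 genes tested on FPKM, or all 11891 tested on recovered fragments, and a gene past the test had an adjusted p under 0.05. Over genes, the median SD within conditions was 0.299 on the log2 scale for FPKM and 0.105 for recovered fragments. Changes and differences are on these log2 scales, which understate the change of low genes.

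Sequences before the start of 5 of the 6 genes, all but Nfkbiz, were found in the RefSeq promoter table (build GRCm38.p6), and the 250 bases before each start were searched on both strands for the κB consensus, to which NF-κB dimers bind. The windows of Nfkbia and Nfkbie and 1 of the 3 windows of Nfkbid held a match, and the windows of Nfkbib and Bcl3 held none. A match stood in 3.90% of all 32851 windows of this length. The Nfkbia and Nfkbie windows are printed as those of members with an assembled transcript that held a match. Both run 5′ to 3′ on the strand of the gene, with the match in capitals, at chr12:55492648-55492897 on the minus strand for Nfkbia and at chr17:45555450-45555699 on the plus strand for Nfkbie.
Nfkbia: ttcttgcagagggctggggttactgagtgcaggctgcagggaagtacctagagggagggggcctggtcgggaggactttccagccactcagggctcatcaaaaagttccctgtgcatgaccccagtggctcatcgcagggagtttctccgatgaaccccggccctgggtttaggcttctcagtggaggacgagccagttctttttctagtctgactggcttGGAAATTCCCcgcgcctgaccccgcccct
Nfkbie: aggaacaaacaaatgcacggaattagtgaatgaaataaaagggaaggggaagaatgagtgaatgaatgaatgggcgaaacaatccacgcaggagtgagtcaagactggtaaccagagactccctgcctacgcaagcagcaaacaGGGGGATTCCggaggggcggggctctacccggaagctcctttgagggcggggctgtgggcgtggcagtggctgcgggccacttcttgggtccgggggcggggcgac
The Nfkbia match GGAAATTCCC lies at bases -29 to -20 and reads as the consensus on the opposite strand, and the Nfkbie match GGGGGATTCC lies at bases -106 to -97 on the strand of the gene. For Nfkbid, the window at chr7:30422156-30422405 held GGGACTTCCC at bases -226 to -217 and, on the opposite strand, GGAATTCCCC at bases -181 to -172. A window without a match only lacks these letters.

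Nfkbid, which spans chr7:30423304-30428746 of mm10 with 11 exons, had no assembled transcript in any library. It was listed at 0 throughout and entered no test.

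Nfkbia (chr12:55489409-55492647, 6 exons, 1579 exonic bases) had the highest level of the family in every line at 1 h and 2 h of TNFα. In RelA(TA2) cells it stood at 14.3 and 17.1 FPKM at 0 h, 193 and 190.5 FPKM at 1 h and 75.4 and 87.5 FPKM at 2 h. In RelA(Ser276Ala) cells it stood at 13.2 and 12.8 FPKM at 0 h, 187 and 162 FPKM at 1 h and 58.4 and 67.5 FPKM at 2 h. In RelA(wt) cells it stood at 34.1 and 14.2 FPKM at 0 h, 271.5 and 395 FPKM at 1 h and 41.9 and 33.7 FPKM at 2 h. At 1 h the libraries of both mutant lines lay below those of RelA(wt) cells and at 2 h above them, with no overlap at either time.
The RelA(wt) replicates were assembled differently. Replicate 1 at 0 h held Nfkbia in 2 pieces, where all other libraries held 1 transcript, and replicate 1 at 1 h held a transcript of 2570 bases. In recovered fragments the RelA(wt) replicates lay closer to each other. The levels were 11.9 and 14.1 at 0 h, 162 and 173 at 1 h and 62.8 and 73.1 fragments per kb at 2 h in RelA(TA2) cells. They were 11.0 and 10.6, 162 and 136 and 51.2 and 56.4 fragments per kb at these times in RelA(Ser276Ala) cells, and 9.38 and 11.5, 408 and 387 and 35.1 and 28.5 fragments per kb in RelA(wt) cells. RelA(wt) libraries were the highest at 1 h and the lowest at 2 h on both measures.

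**Figure D1:**
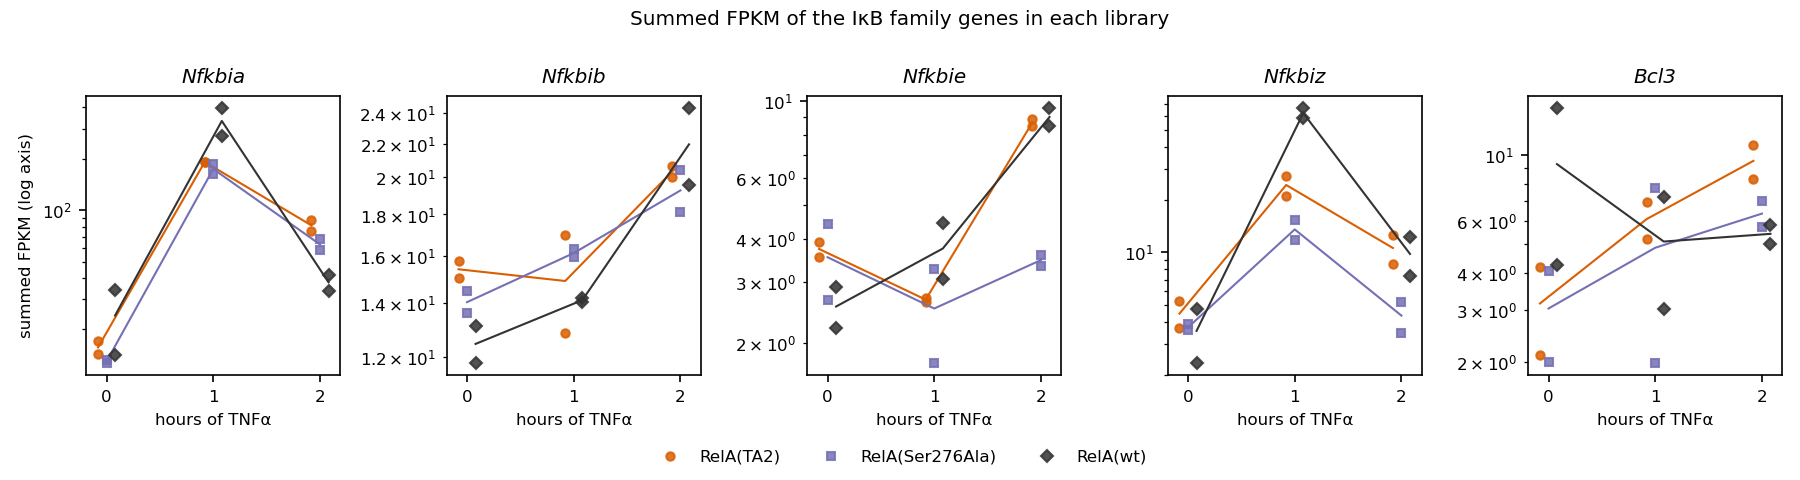
Summed FPKM (log axis, its range set for each gene) of the 5 IκB family genes with an assembled transcript against hours of TNFα in RelA(TA2), RelA(Ser276Ala) and RelA(wt) cells. Each point is a library and each line joins the means of 2 libraries. Nfkbia and Nfkbiz are highest at 1 h in every line, and the RelA(wt) Nfkbia libraries at 0 h lie apart, at 34.1 and 14.2 FPKM.

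Nfkbiz (chr16:55811377-55838641, 14 exons, 3878 exonic bases) was the other member that peaked at 1 h. Its product IκBζ is known from macrophages as a nuclear cofactor for a set of inflammatory genes. RelA(TA2) cells had 5.26 and 3.70 FPKM at 0 h, 21.0 and 27.4 FPKM at 1 h and 8.54 and 12.7 FPKM at 2 h. RelA(Ser276Ala) cells had 3.89 and 3.59 FPKM at 0 h, 15.3 and 11.7 FPKM at 1 h and 3.48 and 5.25 FPKM at 2 h. RelA(wt) cells had 2.35 and 4.79 FPKM at 0 h, 58.2 and 66.2 FPKM at 1 h and 12.2 and 7.37 FPKM at 2 h. The lines did not overlap at 1 h, when RelA(Ser276Ala) was lowest and RelA(wt) highest, but RelA(wt) libraries overlapped both mutant lines at 0 h.
In recovered fragments the 1 h levels were 18.5 and 25.1 fragments per kb in RelA(TA2), 13.6 and 10.3 in RelA(Ser276Ala) and 50.9 and 57.6 in RelA(wt) cells, in the same order. The 0 h levels were 2.62 and 3.09, 1.36 and 1.39 and 1.85 and 1.87 fragments per kb in these lines and the 2 h levels 7.07 and 9.07, 2.99 and 3.53 and 6.24 and 5.10. No lines overlapped at any time on this measure.

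Nfkbie (chr17:45555716-45563168, 6 exons, 2421 exonic bases), whose product IκBε is a slower, NF-κB-inducible inhibitor, was highest at 2 h in RelA(TA2) and RelA(wt) cells. Its FPKM at 0, 1 and 2 h were 3.55 and 3.92, 2.70 and 2.63 and 8.48 and 8.89 in RelA(TA2) cells. They were 4.41 and 2.67, 3.27 and 1.75 and 3.59 and 3.34 in RelA(Ser276Ala) cells and 2.89 and 2.20, 4.44 and 3.05 and 8.47 and 9.54 in RelA(wt) cells. At 2 h the RelA(Ser276Ala) libraries lay below those of the other lines, which overlapped each other.
The recovered fragments of Nfkbie were few, 24 to 659 per library. At 0 h each library held 2 or 3 transcripts, the longest of which covered 22.1% of the exonic bases in RelA(wt) replicate 1 and 89.9% in replicate 2, against 30.7% to 56.9% in the mutant lines. At 0, 1 and 2 h they were 1.35 and 1.54, 2.30 and 2.03 and 9.62 and 9.03 fragments per kb in RelA(TA2) cells. In RelA(Ser276Ala) cells they were 0.667 and 0.799, 1.18 and 1.34 and 3.39 and 3.05, and in RelA(wt) cells 0.380 and 1.31, 3.77 and 2.88 and 7.94 and 8.66. The RelA(wt) replicates at 0 h stood further apart than those of any other Nfkbie condition, and RelA(Ser276Ala) was again lowest at 2 h.

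Nfkbib (chr7:28758251-28766524, 7 exons, 1945 exonic bases) encodes IκBβ, an inhibitor that is lost and replaced slowly after stimulation. Its level varied least, from 11.8 to 24.3 FPKM over the 18 libraries. It was 20 and 20.6 FPKM at 2 h in RelA(TA2) cells against 15.0 and 15.8 FPKM at 0 h. The 2 h and 0 h levels were 20.4 and 18.1 against 14.5 and 13.6 FPKM in RelA(Ser276Ala) cells and 24.3 and 19.6 against 11.8 and 13.1 FPKM in RelA(wt) cells. The 2 h libraries lay above the 0 h libraries in every line without overlap. At 0 h the lines did not overlap, with RelA(TA2) highest and RelA(wt) lowest. At 1 h RelA(TA2) cells, with 17.0 and 12.8 FPKM, overlapped both other lines, while RelA(Ser276Ala) cells, with 16.3 and 15.9 FPKM, lay above RelA(wt) cells, with 14.0 and 14.2 FPKM. At 2 h all lines overlapped.

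Bcl3 (chr7:19808462-19822755, 9 exons, 1835 exonic bases), known as a partner of p50 and p52 homodimers, was assembled in up to 5 pieces. It had 4.18 and 2.11, 5.19 and 6.95 and 8.31 and 10.8 FPKM at 0, 1 and 2 h in RelA(TA2) cells. RelA(Ser276Ala) cells had 4.05 and 2.00, 1.98 and 7.73 and 6.96 and 5.70 FPKM, and RelA(wt) cells had 14.4 and 4.24, 3.0 and 7.19 and 5.01 and 5.81 FPKM. The 14.4 FPKM of RelA(wt) replicate 1 at 0 h came from 3 pieces.
In recovered fragments Bcl3 at 2 h exceeded 0 h in every line without overlap, with 6.49 and 9.40 against 0.920 and 1.49 fragments per kb in RelA(TA2), 4.42 and 3.48 against 1.21 and 0.873 in RelA(Ser276Ala) and 3.97 and 5.04 against 1.46 and 1.78 in RelA(wt) cells. At 1 h the levels were 3.54 and 2.72, 1.48 and 1.46 and 2.20 and 1.99 fragments per kb in these lines, highest in RelA(TA2) and lowest in RelA(Ser276Ala) without overlap.

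**Figure D2:**
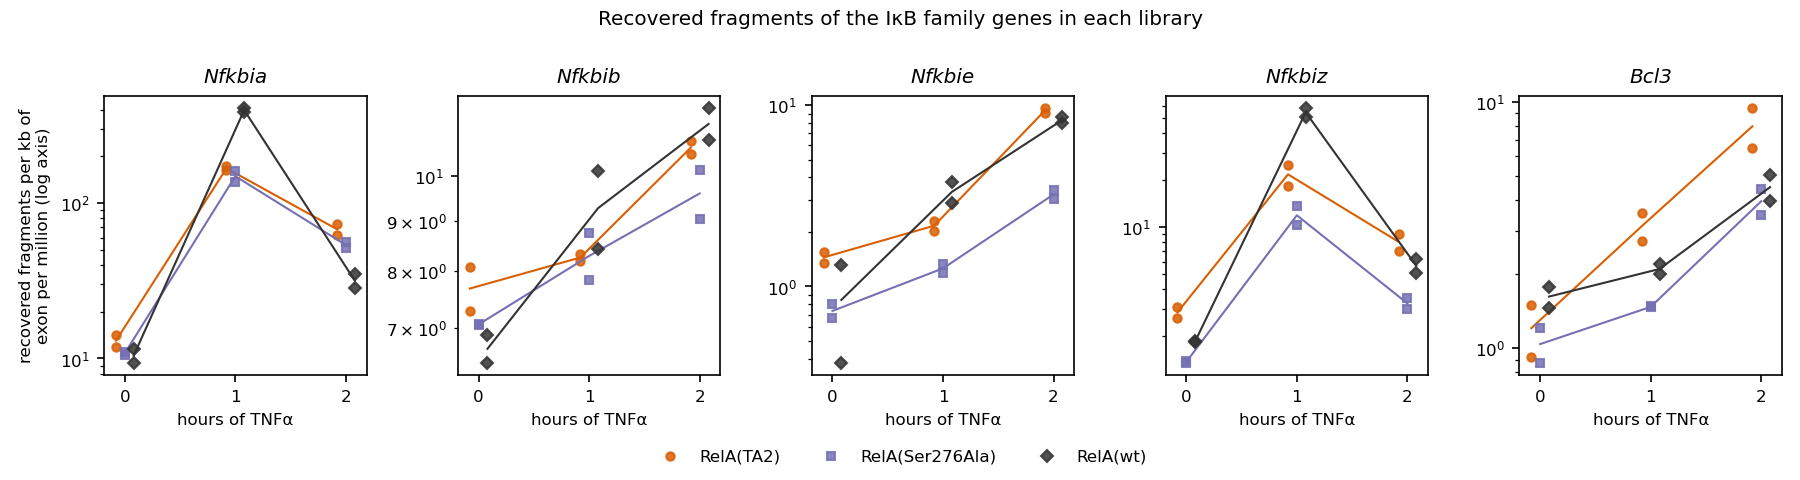
Recovered fragments per kb of exon per M mapped fragments (log axis, its range set for each gene) of the same 5 genes against hours of TNFα in RelA(TA2), RelA(Ser276Ala) and RelA(wt) cells, with each library as a point and lines through the means of 2 libraries. The RelA(wt) Nfkbia libraries at 0 h, 9.38 and 11.5, lie closer together than on FPKM, while those of Nfkbie, 0.380 and 1.31, lie apart.

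At 1 h against 0 h, Nfkbia and Nfkbiz rose in all 3 lines on FPKM and no other member passed the test. In RelA(TA2) cells the log2 change was 3.57 (SE 0.32, adjusted p = 0.000139) for Nfkbia and 2.32 (SE 0.34, adjusted p = 0.0051) for Nfkbiz. In RelA(Ser276Ala) cells it was 3.69 (SE 0.32, adjusted p = 0.000149) and 1.71 (SE 0.34, adjusted p = 0.0352) for these genes. In RelA(wt) cells it was 3.86 (SE 0.32, adjusted p = 6.12e-05) and 4.01 (SE 0.34, adjusted p = 7.49e-05). The RelA(wt) Nfkbia change was 4.48 without replicate 1 of 0 h and 3.24 without replicate 2, past the test in both cases. In each line these are 2 of 5 members, and of all genes tested 2.00%, 1.50% and 1.60% passed in RelA(TA2), RelA(Ser276Ala) and RelA(wt) cells. The Nfkbiz call in RelA(Ser276Ala) cells was lost when any 1 of 8 libraries was left out, namely both replicates of the 1 h libraries of each line and of its own 0 h libraries (log2 change 1.53 to 1.90, adjusted p 0.0501 to 0.148).
In recovered fragments the same genes rose. Nfkbia changed by 3.70 (adjusted p = 2.75e-08) in RelA(TA2), 3.74 (adjusted p = 2.45e-08) in RelA(Ser276Ala) and 5.21 (adjusted p = 6.33e-10) in RelA(wt) cells, with an SE of 0.13 each. Nfkbiz changed by 2.91 (adjusted p = 2.64e-06), 2.99 (adjusted p = 2.24e-06) and 4.77 (adjusted p = 2.79e-08) in these lines, with an SE of 0.18 each. The 3 further calls, 1 in RelA(TA2) and 2 in RelA(wt) cells, appeared on this measure only. Bcl3 rose in RelA(TA2) cells by 1.27 (adjusted p = 0.00707), but by 1.10 (adjusted p = 0.0715) without RelA(TA2) replicate 1 at 1 h. In RelA(wt) cells Nfkbie rose by 1.92 (adjusted p = 0.00432), but by 1.75 (adjusted p = 0.0505) without replicate 1 at 1 h. Without replicate 1 or 2 at 0 h it rose by 1.22 (adjusted p = 0.00282) or 2.62 (adjusted p = 9.22e-06). Nfkbib rose by 0.44 (adjusted p = 0.0128), but by 0.33 (adjusted p = 0.125) without replicate 1 at 1 h and 0.40 (adjusted p = 0.0966) without replicate 2 at 0 h. Without either RelA(wt) library of 0 h, which are the widest apart for Nfkbie, Nfkbie also passed in RelA(TA2) (0.56, adjusted p 0.0358 and 0.0371) and RelA(Ser276Ala) cells (0.65, adjusted p 0.0246 and 0.0256). With all libraries, 3 of 5 members passed in RelA(TA2), 2 in RelA(Ser276Ala) and 4 in RelA(wt) cells, beside 10.3%, 6.08% and 6.85% of all genes tested.

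At 2 h against 0 h, Nfkbia was still raised in both mutant lines on FPKM, by 2.34 (SE 0.32, adjusted p = 0.00301) in RelA(TA2) and 2.23 (SE 0.32, adjusted p = 0.00875) in RelA(Ser276Ala) cells, and its change in RelA(wt) cells was 0.76 (SE 0.32, adjusted p = 0.366). Without RelA(wt) replicate 1 at 0 h, the library with Nfkbia in pieces, the RelA(wt) change was 1.38 (adjusted p = 0.0118), and without replicate 2 it was 0.14 (adjusted p = 0.967). Nfkbie rose in RelA(TA2) cells by 1.12 (SE 0.27, adjusted p = 0.0488) and in RelA(wt) cells by 1.65 (SE 0.27, adjusted p = 0.011), and Nfkbib rose in RelA(wt) cells by 0.79 (SE 0.14, adjusted p = 0.0151). Nfkbiz changed by 1.15 (adjusted p = 0.101) in RelA(TA2), 0.18 (adjusted p = 0.943) in RelA(Ser276Ala) and 1.37 (adjusted p = 0.0945) in RelA(wt) cells, where it passed without replicate 2 of 0 h (1.81, adjusted p = 0.038) and ranged from 0.92 to 1.81 over all libraries left out in turn. Nfkbie in RelA(Ser276Ala) cells changed by 0.01 (SE 0.27). Its longest transcript there covered 30.7% and 44.7% of the exonic bases at 0 h and 99.9% and 99.4% at 2 h. Bcl3 in RelA(wt) cells changed by -0.51 (SE 0.65, adjusted p = 0.847). The members past the test were 2 of 5 in RelA(TA2), 1 in RelA(Ser276Ala) and 2 in RelA(wt) cells, beside 4.05%, 0.979% and 1.86% of all genes.
Single libraries decided some of these calls. Nfkbie in RelA(wt) cells gave 1.49 (adjusted p = 0.065) without replicate 2 at 0 h and 1.57 (adjusted p = 0.0625) without replicate 2 at 2 h. Nfkbib in RelA(wt) cells gave 0.72 (adjusted p = 0.0791) without replicate 1 at 0 h and 0.64 (adjusted p = 0.09) without replicate 1 at 2 h. Nfkbie in RelA(TA2) cells lost its call without any 1 of 14 libraries, namely all 6 RelA(TA2), all 6 RelA(wt) and both RelA(Ser276Ala) libraries of 2 h (1.05 to 1.18, adjusted p 0.0552 to 0.182).
Unlike on FPKM for Nfkbie in RelA(Ser276Ala) and Bcl3 in RelA(wt) cells, all 5 members were higher at 2 h than at 0 h in recovered fragments in each of the 3 lines. They stand beside 27.5%, 10.2% and 12.9% of all genes past the test on this measure in RelA(TA2), RelA(Ser276Ala) and RelA(wt) cells. Nfkbia changed by 2.38 (adjusted p = 9.39e-07), 2.29 (adjusted p = 4.98e-06) and 1.60 (adjusted p = 2.35e-05), and Nfkbie by 2.56 (adjusted p = 0.000284), 1.90 (adjusted p = 0.00485) and 3.23 (adjusted p = 0.000105). The RelA(wt) change of Nfkbie was 2.53 without replicate 1 of 0 h and 3.94 without replicate 2, past the test in both cases. Bcl3 changed by 2.52 (adjusted p = 4.73e-05), 1.72 (adjusted p = 0.00185) and 1.36 (adjusted p = 0.00435). Nfkbib had the smallest changes, 0.48 (adjusted p = 0.00273), 0.44 (adjusted p = 0.0131) and 0.76 (adjusted p = 0.000323), and its call in RelA(Ser276Ala) cells was lost without either replicate at 0 h or replicate 1 at 2 h (0.36 to 0.44, adjusted p 0.0634 to 0.0842).

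At 2 h against 1 h the members parted. In RelA(wt) cells Nfkbia and Nfkbiz fell, and Nfkbie rose in RelA(TA2) and RelA(wt) cells, on both measures. On FPKM Nfkbia changed by -1.23 (SE 0.32, adjusted p = 0.0794) in RelA(TA2), -1.46 (SE 0.32, adjusted p = 0.0471) in RelA(Ser276Ala) and -3.11 (SE 0.32, adjusted p = 0.000387) in RelA(wt) cells, past the test in the last 2 lines. Nfkbiz fell in RelA(wt) cells by 2.64 (adjusted p = 0.00168), with -1.17 (adjusted p = 0.125) in RelA(TA2) and -1.54 (adjusted p = 0.0502) in RelA(Ser276Ala) cells. Nfkbie rose in RelA(TA2) cells by 1.54 (adjusted p = 0.014) and in RelA(wt) cells by 1.18 (adjusted p = 0.0388), and Nfkbib rose in RelA(wt) cells by 0.61 (adjusted p = 0.0327). The members past the test numbered 1 of 5 in RelA(TA2), 1 in RelA(Ser276Ala) and 4 in RelA(wt) cells, beside 2.79%, 2.07% and 4.22% of all genes.
The Nfkbia call in RelA(Ser276Ala) cells was lost without any 1 of 16 libraries, that is all but the RelA(wt) pair of 0 h (-1.57 to -1.36, adjusted p up to 0.174), and the Nfkbia change in RelA(TA2) cells passed without either RelA(wt) library of 0 h (-1.23, adjusted p 0.00808 and 0.00809). The Nfkbie calls were lost without any 1 of the 4 libraries compared in RelA(TA2) cells (1.50 to 1.57, adjusted p 0.0523 to 0.0689) and without any 1 of 10 libraries in RelA(wt) cells (0.94 to 1.42, adjusted p 0.0518 to 0.202), and the Nfkbib call without replicate 1 or 2 of 1 h or replicate 1 of 2 h of RelA(wt) cells (0.46 to 0.62, adjusted p 0.113 to 0.181). Nfkbiz in RelA(Ser276Ala) cells passed without any 1 of 6 libraries (-1.54, adjusted p 0.0341 to 0.0498), namely the RelA(wt) libraries of 0 h and 2 h and the RelA(TA2) libraries of 0 h.
In recovered fragments Nfkbia and Nfkbiz fell in all 3 lines, with a change of Nfkbia of -1.32 in RelA(TA2), -1.45 in RelA(Ser276Ala) and -3.61 in RelA(wt) cells (adjusted p = 5.85e-05, 4.24e-05 and 2.56e-08). The 3 lines had 5, 4 and 5 of 5 members past the test on this measure, beside 20.1%, 17.6% and 24.0% of all genes, with Nfkbie and Bcl3 higher at 2 h in each.
Several of these fragment calls hung on single libraries. The Nfkbie call was lost in RelA(Ser276Ala) cells without any 1 of the 4 libraries compared (1.17 to 1.34, adjusted p 0.0549 to 0.112) and in RelA(wt) cells without replicate 1 or 2 of 2 h or replicate 2 of 1 h (1.14 to 1.38, adjusted p 0.0528 to 0.0978). The Bcl3 call was lost in RelA(TA2) cells without replicate 2 of 2 h (0.98, adjusted p = 0.0503) and in RelA(wt) cells without replicate 2 of 2 h (0.87, adjusted p = 0.0851) or of 1 h (0.99, adjusted p = 0.0645). The Nfkbib call was lost in RelA(TA2) cells without any 1 of the 4 libraries compared (0.31 to 0.38, adjusted p 0.0607 to 0.119) and in RelA(wt) cells without replicate 1 or 2 of 2 h or replicate 2 of 1 h (0.20 to 0.36, adjusted p 0.0633 to 0.231).

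Both mutant lines were set against the same RelA(wt) libraries, so their differences from RelA(wt) are not independent of each other. At 0 h limma passed 0 of 5 members for either mutant line. On FPKM 0 members in RelA(TA2) and 1 in RelA(Ser276Ala) had an unadjusted p under 0.05, and on recovered fragments 2 and 2. Of all genes 3.49% passed on FPKM and 22.6% on recovered fragments for RelA(TA2), and 1.96% and 16.1% for RelA(Ser276Ala). Nfkbia in recovered fragments differed from RelA(wt) by 0.28 (adjusted p = 0.148) in RelA(TA2) and 0.04 (adjusted p = 0.915) in RelA(Ser276Ala) cells. On FPKM the Nfkbia differences had the opposite sign, -0.48 (adjusted p = 0.529) and -0.74 (adjusted p = 0.345). They were -1.10 and -1.36 without RelA(wt) replicate 2 of 0 h, and 0.14 and -0.12 without replicate 1, the library with Nfkbia in pieces. Nfkbiz in RelA(TA2) cells differed by 0.55 (adjusted p = 0.0523) in recovered fragments and passed without any 1 of 6 libraries, the RelA(TA2) libraries of 1 h and 2 h and the RelA(Ser276Ala) libraries of 1 h (adjusted p 0.0405 to 0.0468). The Nfkbie difference depended on the RelA(wt) library used. With all libraries it was 0.80 (adjusted p = 0.104) in RelA(TA2) and -0.02 (adjusted p = 0.997) in RelA(Ser276Ala) cells. Without RelA(wt) replicate 2 it was 1.51 (adjusted p = 0.000533) and 0.68 (adjusted p = 0.042) in these lines, and without replicate 1 it was 0.10 (adjusted p = 0.775) and -0.72 (adjusted p = 0.0292).

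At 1 h the Nfkbia and Nfkbiz libraries of both mutant lines lay below those of RelA(wt) cells. On FPKM Nfkbiz was lower in RelA(Ser276Ala) cells by -2.17 (SE 0.34, adjusted p = 0.00806), a level 0.222 times that of RelA(wt). In RelA(TA2) cells its difference was -1.35 (SE 0.34, adjusted p = 0.067), and it passed without either RelA(wt) library of 0 h (-1.35, adjusted p = 0.0455 in both cases). Nfkbia differed by -0.77 (SE 0.32, adjusted p = 0.283) in RelA(TA2) and -0.91 (SE 0.32, adjusted p = 0.179) in RelA(Ser276Ala) cells, and the RelA(Ser276Ala) difference passed without either RelA(wt) library of 0 h (-0.91, adjusted p 0.0331 and 0.0333). Thus 0 of 5 members passed in RelA(TA2) cells, where 2 had an unadjusted p under 0.05, and 1 passed in RelA(Ser276Ala) cells, beside 2.90% and 3.01% of all genes.
In recovered fragments both genes passed in both lines. Nfkbia was at 0.427 times the RelA(wt) level in RelA(TA2) cells, a log2 difference of -1.23 (SE 0.13, adjusted p = 0.000108), and at 0.370 times in RelA(Ser276Ala) cells, -1.44 (SE 0.13, adjusted p = 4.89e-05). Nfkbiz differed by -1.31 (SE 0.18, adjusted p = 0.00064) and -2.20 (SE 0.18, adjusted p = 2.47e-05). Nfkbie was also lower in RelA(Ser276Ala) cells, by -1.29 (SE 0.33, adjusted p = 0.0171), a call lost without either RelA(wt) library of 1 h or without RelA(Ser276Ala) replicate 1 (-1.46 to -1.12, adjusted p 0.0507 to 0.106). Without either RelA(wt) library of 0 h Nfkbie also passed in RelA(TA2) cells (-0.55, adjusted p 0.0234 and 0.0242). The 2 of 5 members in RelA(TA2) and 3 of 5 in RelA(Ser276Ala) cells stand beside 19.9% and 21.8% of all genes.

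At 2 h the sign of the Nfkbia difference had turned. On FPKM it was 1.10 (SE 0.32, adjusted p = 0.106) in RelA(TA2) and 0.73 (SE 0.32, adjusted p = 0.265) in RelA(Ser276Ala) cells, and the RelA(TA2) difference passed without either RelA(wt) library of 0 h (1.10, adjusted p 0.0146 and 0.0147). Nfkbie was lower in RelA(Ser276Ala) cells, by -1.26 (SE 0.27, adjusted p = 0.0325), and this call was lost without any 1 of the 4 libraries compared (-1.34 to -1.18, adjusted p 0.0848 to 0.142). In RelA(TA2) cells the Nfkbie difference was -0.05 (SE 0.27, adjusted p = 1). On FPKM 0 of 5 members passed in RelA(TA2) cells, with 1 at an unadjusted p under 0.05, and 1 of 5 in RelA(Ser276Ala) cells, beside 3.24% and 3.44% of all genes.
In recovered fragments Nfkbia was higher than in RelA(wt) cells by 1.06 (SE 0.13, adjusted p = 0.000294) in RelA(TA2) and by 0.73 (SE 0.13, adjusted p = 0.00239) in RelA(Ser276Ala) cells, at 2.09 and 1.66 times the RelA(wt) level. RelA(Ser276Ala) cells had lower Nfkbie, -1.35 (SE 0.33, adjusted p = 0.0111), and lower Nfkbiz, -0.81 (SE 0.18, adjusted p = 0.00808). The Nfkbie call was lost without replicate 2 of RelA(Ser276Ala) or of RelA(wt) at 2 h (-1.28 each, adjusted p 0.0616 and 0.0689), and the Nfkbiz call without replicate 1 of either (-0.68 and -0.67, adjusted p 0.0552 and 0.0664). The 1 of 5 members in RelA(TA2) and 3 of 5 in RelA(Ser276Ala) cells stand beside 22.8% and 27.2% of all genes.
In recovered fragments Bcl3 in RelA(TA2) cells at 2 h differed from RelA(wt) by 0.74 (SE 0.25, adjusted p = 0.0501), which was not past the test. It was 1.02 (adjusted p = 0.0431) without RelA(TA2) replicate 1 of 2 h and 0.47 (adjusted p = 0.307) without replicate 2, and it passed without either RelA(TA2) library of 0 h (0.74, adjusted p 0.0298 and 0.03). On FPKM the Bcl3 difference was 0.76 (SE 0.65, adjusted p = 0.647). Nfkbib differed from RelA(wt) by -0.26 to 0.16 in recovered fragments over both lines and all times, with no adjusted p under 0.05, although its difference in RelA(Ser276Ala) cells at 2 h, -0.26 (adjusted p = 0.0536), passed without either RelA(wt) library of 1 h or either RelA(TA2) library of 0 h (adjusted p 0.0392 to 0.0421).

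**Figure D3:**
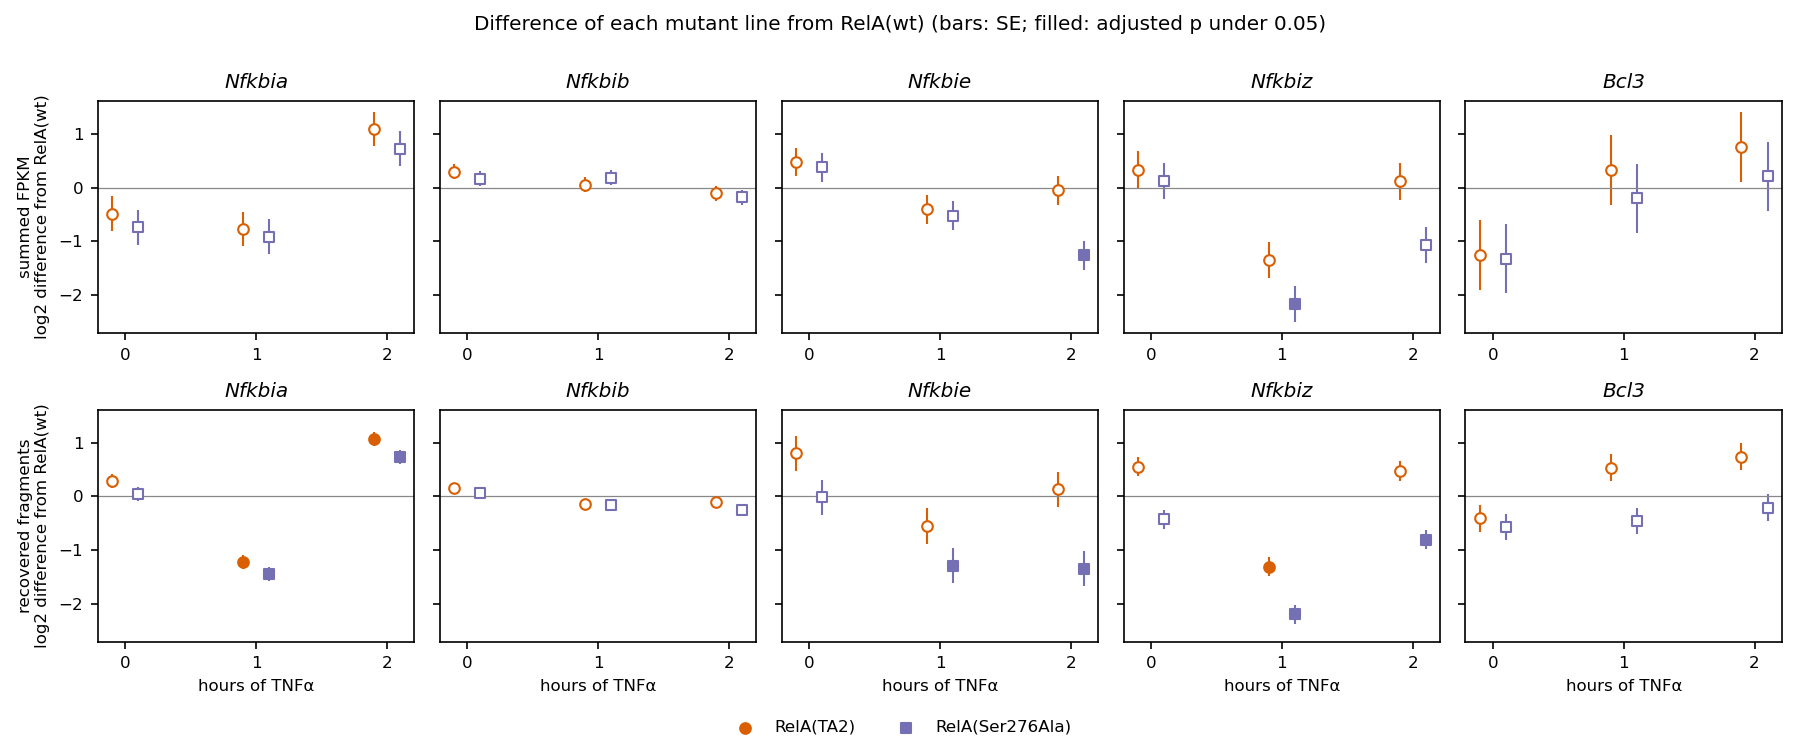
Log2 difference of RelA(TA2) (circles) and RelA(Ser276Ala) (squares) cells from RelA(wt) cells at 0, 1 and 2 h of TNFα for summed FPKM (upper row) and recovered fragments (lower row), with bars for the SE and filled symbols for an adjusted p under 0.05. In recovered fragments Nfkbia lies below 0 at 1 h, at -1.23 and -1.44, and above 0 at 2 h, at 1.06 and 0.73.

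RelA(TA2) and RelA(Ser276Ala) cells were also set against each other. Nfkbia did not pass at any time, with differences in recovered fragments of 0.25 (SE 0.13, adjusted p = 0.193) at 0 h, 0.21 (SE 0.13, adjusted p = 0.298) at 1 h and 0.33 (SE 0.13, adjusted p = 0.0941) at 2 h. Nfkbiz was higher in RelA(TA2) cells at all 3 times on this measure, by 0.98 (SE 0.18, adjusted p = 0.00302), 0.90 (SE 0.18, adjusted p = 0.00606) and 1.27 (SE 0.18, adjusted p = 0.000679). The 1 h call was lost without RelA(TA2) replicate 2 (0.67, adjusted p = 0.0603).
On FPKM the Nfkbiz differences were 0.22 (adjusted p = 0.861), 0.82 (adjusted p = 0.269) and 1.19 (adjusted p = 0.102) at these times. Nfkbie was higher in RelA(TA2) cells at 2 h, by 1.21 (SE 0.27, adjusted p = 0.0393) on FPKM and 1.48 (SE 0.33, adjusted p = 0.00816) in recovered fragments. The FPKM call was lost without any 1 of 10 libraries (1.17 to 1.26, adjusted p 0.051 to 0.151), among them all 4 compared, and the fragment call without RelA(Ser276Ala) replicate 2 of 2 h (1.42, adjusted p = 0.0522). In recovered fragments Nfkbie also passed without either RelA(wt) library of 0 h, at 0 h (0.82, adjusted p 0.0028 and 0.00292) and at 1 h (0.74, adjusted p 0.00595 and 0.00622).
Bcl3 was higher in RelA(TA2) cells in recovered fragments at 1 h, by 1.00 (adjusted p = 0.0153), and at 2 h, by 0.95 (adjusted p = 0.0173). The 1 h call was lost without RelA(TA2) replicate 1 or either RelA(Ser276Ala) library of 1 h (0.82 to 1.00, adjusted p 0.0513 to 0.115), and the 2 h call without replicate 2 of either line (0.68 and 0.80, adjusted p 0.152 and 0.12). On FPKM 0, 0 and 1 of 5 members passed at 0, 1 and 2 h, beside 3.49%, 3.21% and 3.32% of all genes, with 0, 1 and 2 at an unadjusted p under 0.05. In recovered fragments 1, 2 and 3 passed, beside 26.4%, 20.9% and 23.0%.

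Lines can differ before TNFα, so the change of a mutant line was also compared with the change of RelA(wt) cells, as an interaction term. At 1 h against 0 h the response of Nfkbia on FPKM differed from that of RelA(wt) by -0.29 (SE 0.45, adjusted p = 0.9) in RelA(TA2) and -0.17 (SE 0.45, adjusted p = 1) in RelA(Ser276Ala) cells. In recovered fragments, where the RelA(wt) 0 h libraries lay together, it differed by -1.51 (SE 0.19, adjusted p = 0.00363) and -1.47 (SE 0.19, adjusted p = 0.00442), so that the fold rise was 0.351 and 0.361 times that of RelA(wt) cells. Nfkbiz differed by -1.86 (SE 0.26, adjusted p = 0.00818) and -1.78 (SE 0.26, adjusted p = 0.0137) in recovered fragments and by -1.69 (adjusted p = 0.279) and -2.30 (adjusted p = 0.179) on FPKM. The Nfkbiz call in RelA(Ser276Ala) cells was lost in recovered fragments without RelA(wt) replicate 2 of 1 h or either RelA(Ser276Ala) library of 0 h (-1.80 to -1.67, adjusted p 0.053 to 0.0572), and on FPKM it passed without RelA(wt) replicate 2 of 0 h (-2.74, adjusted p = 0.0302) and ranged from -2.74 to -1.85 over all libraries left out in turn.
On FPKM 0 of 5 members passed for either line, with 2 and 2 at an unadjusted p under 0.05, beside 0.340% of all genes for RelA(TA2) and 0.218% for RelA(Ser276Ala). In recovered fragments 2 of 5 passed for each, beside 1.68% and 0.235%. For Nfkbie the response differed by -1.36 (adjusted p = 0.173) and -1.27 (adjusted p = 1) in recovered fragments, and both hung on the RelA(wt) pair of 0 h. Without replicate 2 they were -2.06 (adjusted p = 0.0018) and -1.97 (adjusted p = 0.00246), and without replicate 1 they were -0.65 (adjusted p = 0.278) and -0.57 (adjusted p = 1).

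At 2 h against 0 h 0 of 5 members passed the test for a difference in response on either measure with all libraries. The Nfkbia response differed on FPKM by 1.59 (SE 0.45, adjusted p = 0.399) in RelA(TA2) and 1.47 (SE 0.45, adjusted p = 0.559) in RelA(Ser276Ala) cells. These FPKM values depended on the RelA(wt) pair of 0 h, with 2.21 and 2.09 without replicate 2 and 0.97 and 0.85 without replicate 1. In recovered fragments it differed by 0.78 (adjusted p = 0.137) and 0.69 (adjusted p = 0.319). For RelA(TA2) cells 1 member on FPKM and 2 in recovered fragments had an unadjusted p under 0.05, and for RelA(Ser276Ala) cells 3 and 3. Of all genes 0.226% passed on FPKM and 0.294% in recovered fragments for RelA(TA2), and 0.170% and 0.235% for RelA(Ser276Ala). The Nfkbie response in recovered fragments differed by -0.67 (adjusted p = 0.522) and -1.33 (adjusted p = 0.576), and again hung on the RelA(wt) pair of 0 h. Without replicate 2 both passed (-1.37, adjusted p = 0.0438, and -2.03, adjusted p = 0.00248), and without replicate 1 they were 0.04 (adjusted p = 0.984), with the sign turned, and -0.62 (adjusted p = 0.846).
A comparison of the change at 2 h against 1 h, added after the data were seen, leaves out the 0 h libraries. In recovered fragments the change of Nfkbia differed from that of RelA(wt) by 2.29 (SE 0.19, adjusted p = 0.0001) in RelA(TA2) and 2.17 (SE 0.19, adjusted p = 0.000198) in RelA(Ser276Ala) cells, so that it fell less than in RelA(wt) cells. On FPKM the difference was 1.88 (adjusted p = 0.239) and 1.65 (adjusted p = 0.364), and both passed when either RelA(wt) library of 0 h was left out of the shared spread (1.88, adjusted p 0.0191 and 0.0189, and 1.65, adjusted p 0.0449 and 0.0448). Nfkbiz differed in recovered fragments by 1.78 (SE 0.26, adjusted p = 0.0159) and 1.40 (SE 0.26, adjusted p = 0.0595), the first of which was lost without RelA(wt) replicate 2 of 1 h (1.67, adjusted p = 0.0543), while the other passed without either RelA(TA2) library of 1 h or RelA(Ser276Ala) replicate 1 of 1 h (1.40 to 1.59, adjusted p 0.0442 to 0.047). On FPKM 0 of 5 members passed for either line, with 2 and 2 at an unadjusted p under 0.05, beside 0.243% and 0.291% of all genes, and in recovered fragments 2 and 1 of 5, beside 0.286% and 0.303%.

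The make-up of the family followed Nfkbia. Added up over the members, the family had 24.1 and 28.3 fragments per kb at 0 h, 195 and 211 at 1 h and 96.5 and 111 at 2 h in RelA(TA2) cells. In RelA(Ser276Ala) cells the sum was 21.3 and 20.7, 187 and 157 and 72.1 and 75.5, and in RelA(wt) cells 20 and 22.9, 475 and 458 and 64.9 and 58.1 fragments per kb at these times. The RelA(wt) sum was the highest at 1 h and the lowest at 2 h.
Nfkbia held 47.0% to 51.7% of this sum at 0 h and 82.0% to 86.7% at 1 h over all lines. At 2 h it held 65.1 and 65.6% in RelA(TA2), 71.0 and 74.7% in RelA(Ser276Ala) and 54.0 and 49.0% in RelA(wt) cells, without overlap between the lines. Nfkbib held 28.2% to 34.5% at 0 h and 1.84% to 4.99% at 1 h. On FPKM the Nfkbia share was 33.0% to 52.1% at 0 h, 77.3% to 83.5% at 1 h and 44.3% to 67.5% at 2 h.

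**Figure D4:**
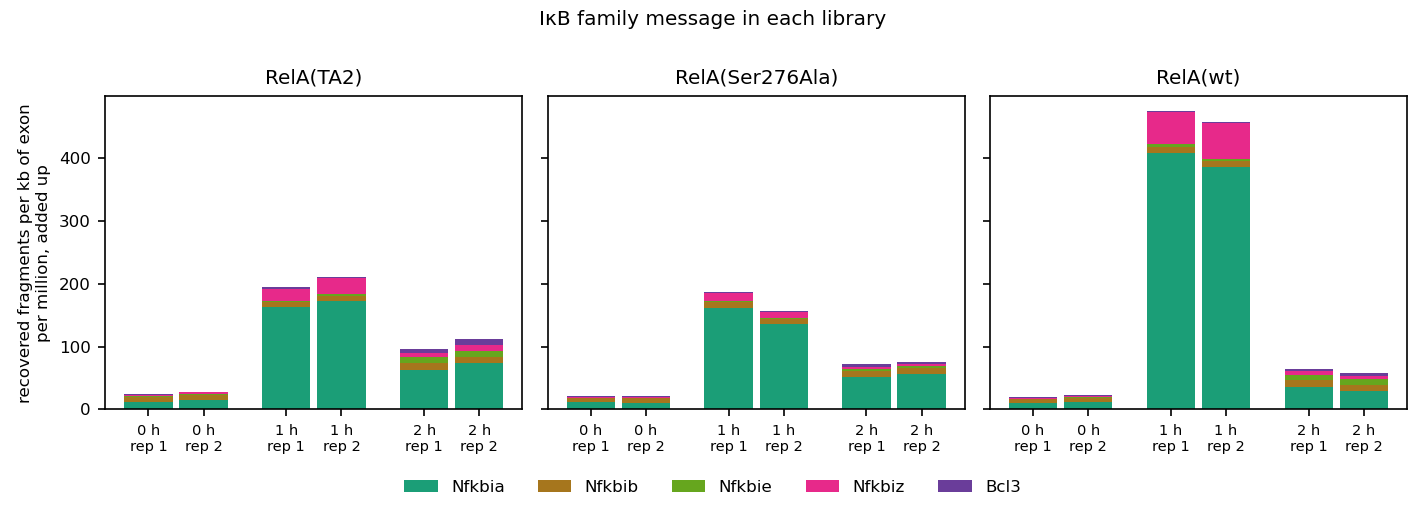
Recovered fragments per kb of exon per M mapped fragments, added up over 5 IκB family genes, in each of the 18 libraries of RelA(TA2), RelA(Ser276Ala) and RelA(wt) cells, with 1 colour per gene and a linear axis from 0. Nfkbia makes up most of every 1 h bar, and the RelA(wt) bars of 1 h reach 475 and 458, against 195 and 211 in RelA(TA2) and 187 and 157 in RelA(Ser276Ala) cells.

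By mean level per length, Nfkbia and Nfkbib led the family at 0 h in every line. On FPKM their libraries overlapped in RelA(TA2) cells (14.3 and 17.1 for Nfkbia, 15.0 and 15.8 for Nfkbib), and in RelA(wt) cells Bcl3 (14.4 and 4.24) overlapped Nfkbib (11.8 and 13.1). Their order by mean differed between measures in RelA(Ser276Ala) cells, where Nfkbib led on FPKM (14.5 and 13.6 against 13.2 and 12.8) and Nfkbia in recovered fragments (11.0 and 10.6 against 7.08 and 7.05). At 1 h Nfkbiz came after Nfkbia in RelA(TA2) and RelA(wt) cells on both measures, and in RelA(Ser276Ala) cells only in recovered fragments. At 2 h Nfkbib came after Nfkbia in all lines on both measures. Among the lower members libraries of neighbours often overlapped on FPKM, as for Bcl3 and Nfkbie at 1 h in RelA(Ser276Ala) and RelA(wt) cells.

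Profiles over the 18 libraries were compared by the root mean square of the log2 difference after each gene's mean was taken off. Of 12363 other genes on FPKM, those most like Nfkbia, whose own root mean square was 1.58, were Phlda1 (0.59), Rgs16, which encodes a brake on G protein signalling (0.63), Fos, a part of AP-1 (0.70), the cytokine gene Lif (0.72) and the immediate early gene Ier3 (0.73). Those most like Nfkbiz, whose own value was 1.29, were Irf1, an interferon regulatory factor (0.51), Ier3 (0.58), the growth factor gene Ereg (0.66), Spry2, a brake on receptor tyrosine kinases (0.66), and the phosphatase gene Dusp1 (0.69). In recovered fragments, with 11890 other genes, Nfkbia and Nfkbiz were most like each other (0.56, where their own values were 1.78 and 1.61). Libraries are shared by all these profiles, and the values are a description.

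The wider pathway list held 58 genes of the NF-κB system, of which 56 were tested on FPKM and 55 in recovered fragments. At 1 h against 0 h 3 rose and 1 fell in RelA(TA2), 2 rose in RelA(Ser276Ala) and 3 rose in RelA(wt) cells on FPKM, beside 2.00%, 1.50% and 1.60% of all genes past the test. At 2 h against 0 h 8 rose and 2 fell in RelA(TA2), 0 passed with limma in RelA(Ser276Ala), where 11 had an unadjusted p under 0.05, and 5 rose in RelA(wt) cells, beside 4.05%, 0.979% and 1.86% of all genes past the test in these lines. In recovered fragments the 2 h counts were 14 higher and 16 lower, 8 higher and 6 lower, and 14 higher and 8 lower, beside 27.5%, 10.2% and 12.9% of all genes. The median change of the list was 0.00, 0.00 and 0.02 at 2 h on FPKM in RelA(TA2), RelA(Ser276Ala) and RelA(wt) cells, beside -0.05, -0.04 and -0.04 over all genes tested.

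Among the brakes on the pathway, Tnfaip3, which encodes the ubiquitin-editing enzyme A20, was highest at 1 h in every line. It had 5.94 and 6.77, 167 and 158 and 26.2 and 31.1 FPKM at 0, 1 and 2 h in RelA(TA2) cells. RelA(Ser276Ala) cells had 2.44 and 3.01, 55.0 and 50.7 and 7.12 and 6.40 FPKM, and RelA(wt) cells had 7.18 and 3.29, 283 and 274 and 10.6 and 10.5 FPKM. The lines did not overlap at 1 h, when RelA(wt) was highest and RelA(Ser276Ala) lowest, or at 2 h, when RelA(TA2) was highest and RelA(Ser276Ala) again lowest. Against RelA(wt), the log2 difference was -2.39 (adjusted p = 0.00056) in RelA(Ser276Ala) cells at 1 h and 1.39 (adjusted p = 0.0148) in RelA(TA2) cells at 2 h. In recovered fragments the 2 h difference of Tnfaip3 was 1.34 (adjusted p = 8e-06) in RelA(TA2) and -0.68 (adjusted p = 0.000629) in RelA(Ser276Ala) cells, where that of Nfkbia was above 0 in both lines. The RelA(TA2) difference of Tnfaip3 was already 1.01 (adjusted p = 4.62e-05) at 0 h and was -0.75 (adjusted p = 0.00039) at 1 h on this measure. The change of Tnfaip3 at 2 h against 0 h was 2.15 in RelA(TA2), 1.40 in RelA(Ser276Ala) and 1.82 in RelA(wt) cells. Tnip1, whose product binds A20, was lower in RelA(Ser276Ala) cells than in RelA(wt) at 2 h, at 14.5 and 15.1 against 31.7 and 30.6 FPKM, a difference of -1.05 (adjusted p = 0.0124). In recovered fragments the Tnip1 difference was already -0.32 (adjusted p = 0.0123) at 0 h and was -1.10 (adjusted p = 4.06e-06) at 2 h.

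Of the 5 subunit genes, Relb passed the test on FPKM at 2 h against 0 h in RelA(TA2) cells with a rise of 2.03 (adjusted p = 0.0111) and in RelA(wt) cells with 1.64 (adjusted p = 0.0488). Nfkb1 passed in RelA(TA2) cells with a rise of 1.88 (adjusted p = 0.0096), and its RelA(wt) libraries of 0 h lay apart, at 41.0 and 15.1 FPKM. Relb stood at 30.7 and 31.1 FPKM in RelA(TA2), 22.7 and 23.9 FPKM in RelA(Ser276Ala) and 22.0 and 22.7 FPKM in RelA(wt) cells at 2 h. At 0 h it stood at 6.83 and 7.57, 6.72 and 6.63 and 6.82 and 6.88 FPKM in these lines. In recovered fragments Relb rose at 2 h against 0 h by 2.11, 1.90 and 1.84 and Nfkb1 by 1.94, 1.02 and 1.42 in these lines, past the test in each. In recovered fragments 3 of 5 subunit genes were higher at 2 h in each line, beside 27.5%, 10.2% and 12.9% of all genes past the test in RelA(TA2), RelA(Ser276Ala) and RelA(wt) cells. Of the 5 genes of the ubiquitin ligase that marks IκB, 0 passed with limma on FPKM at 1 h or 2 h against 0 h in any line, and 0 had an unadjusted p under 0.05. In recovered fragments 2 of 5 fell in RelA(TA2) and 1 of 5 in RelA(wt) cells at 2 h against 0 h, where 27.5% and 12.9% of all genes passed, so that these counts lie near the share over all genes. Of the 10 kinase complex genes, Ikbke, an IκB kinase relative, was lower on FPKM in RelA(Ser276Ala) cells than in RelA(wt) by -1.44 (adjusted p = 0.0341) at 1 h and -1.85 (adjusted p = 0.0098) at 2 h. In recovered fragments the Ikbke difference was already -0.55 (adjusted p = 0.0105) at 0 h, and was -0.75 (adjusted p = 0.00169) at 1 h and -1.43 (adjusted p = 2.41e-05) at 2 h. Sharpin, a part of the linear ubiquitin ligase at the TNF receptor, rose on FPKM at 2 h against 0 h by 1.53 (adjusted p = 0.00538) in RelA(TA2) and 1.47 (adjusted p = 0.00956) in RelA(wt) cells. In recovered fragments it was not among the 6 pathway genes with the smallest adjusted p in either comparison, and its change on that measure is not given here.

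The last list held 6 genes known from macrophages to need IκBζ (Lcn2, Il6, Csf2, Csf3, Il12b and Ccl20), of which 5 were tested on FPKM. Ccl20, a chemokine gene, was listed at 0 in every 0 h library and had 7.07 and 6.58 FPKM in RelA(TA2), 1.95 and 3.18 FPKM in RelA(Ser276Ala) and 42.6 and 36.0 FPKM in RelA(wt) cells at 1 h. At 2 h it had 8.18 and 7.55 FPKM in RelA(TA2) and 25.1 and 28.5 FPKM in RelA(wt) cells and was listed at 0 in both RelA(Ser276Ala) libraries. Csf2, the gene of GM-CSF, was listed at 0 in all RelA(Ser276Ala) libraries, and at 1 h had 1.24 and 0 FPKM in RelA(TA2) and 14.0 and 13.1 FPKM in RelA(wt) cells. Csf3, the gene of G-CSF, was also listed at 0 in all RelA(Ser276Ala) libraries, but at 1 h had 2.06 and 4.55 FPKM in RelA(TA2) against 1.41 and 1.08 FPKM in RelA(wt) cells. At 1 h RelA(wt) was thus highest for Ccl20 and Csf2 and RelA(TA2) for Csf3, without overlap. The RelA(wt) values of Csf3 lay near the filter of 1 FPKM. At 1 h against 0 h on FPKM, Ccl20 passed the test in every line, Csf2 in RelA(wt) cells and Csf3 in RelA(TA2) cells (adjusted p = 0.0149 for Csf3). Lcn2, Il6 and Il12b passed in no line. Of all genes 2.00%, 1.50% and 1.60% passed in RelA(TA2), RelA(Ser276Ala) and RelA(wt) cells. No fold change is given against groups listed at 0.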

How the data were processed

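RNA of 18 libraries was sequenced by the authors, whose processing notes name CASAVA 1.8.2 (base calls), TopHat2 2.0.5 with Bowtie2 2.0.0.7 (alignment, build mm10) and Cufflinks 2.0.2, run on each library alone. Deposited were FPKM per assembled transcript, so depth and transcript length were already divided out by the authors, and their Cuffdiff results were not used.

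Transcripts were placed on a gene of the merged annotation when at least 50% of their bases lay in its exons or they covered at least 50% of those exons (Python 3.11.15, pandas 2.3.3, numpy 2.4.6). FPKM were summed per gene, with 0 where none was assembled. Fragment counts were recovered from FPKM and its confidence limit for assembled genes with a single transcript. Of these counts, 88.9% to 90.2% of those below 500 lay within 0.02 of a whole number. Counts of other transcripts were estimated from FPKM and a running median of fragments per FPKM by transcript length, and were not part of this check. The mapped fragments of each library were not counted but estimated, from the slope of recovered fragments per FPKM against transcript length.

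limma 3.58.1 in R 4.3.3 fitted 1 mean per condition over all 18 libraries (9 residual degrees of freedom, variance trend, two-sided tests, Benjamini and Hochberg adjustment over all genes tested). The script was tested on simulated data. Members, lists and tests were chosen with earlier results of these data known. Named were all members, up to 6 pathway genes per comparison with the smallest adjusted p, of which a selection is printed, and the 5 genes most like Nfkbia and Nfkbiz. Alternatives changed the amount added before the logarithm (0.1 or 1 FPKM), the filter, the scaling, the placing of transcripts, the libraries fitted, the replicate block and the measure, and each library was left out in turn. Leaving out libraries on recovered fragments was added after the data were seen.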

Additional observations from a re-analysis of the deposited data

Results flagged for a closer look

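The response of Nfkbia to TNFα differed between each mutant line and RelA(wt) in recovered fragments, by a test of the difference itself with limma. At 1 h against 0 h the difference was -1.51 in RelA(TA2) cells (adjusted p = 0.00363) and -1.47 in RelA(Ser276Ala) cells (adjusted p = 0.00442), and at 2 h against 1 h, a comparison added after the data were seen, 2.29 (adjusted p = 0.0001) and 2.17 (adjusted p = 0.000198). Leaving out any 1 library ended none of these 4 calls in recovered fragments. On FPKM none of them passed with all libraries.

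The response of Nfkbiz differed likewise in recovered fragments, by -1.86 in RelA(TA2) cells (adjusted p = 0.00818) and -1.78 in RelA(Ser276Ala) cells (adjusted p = 0.0137) at 1 h against 0 h, and by 1.78 in RelA(TA2) cells (adjusted p = 0.0159) at 2 h against 1 h. The -1.78 had an adjusted p of 0.053 to 0.0572 without RelA(wt) replicate 2 of 1 h or either RelA(Ser276Ala) library of 0 h, and the 1.78 became 1.67 (adjusted p = 0.0543) without RelA(wt) replicate 2 of 1 h.

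The FPKM of Nfkbie at 1 h moved down in both RelA(TA2) libraries and up in both RelA(wt) libraries when set against 0 h. The difference of these changes was -0.89 (adjusted p = 0.558 from limma), which did not pass the test. In recovered fragments Nfkbie at 1 h lay above 0 h in both RelA(TA2) libraries too (0.56, adjusted p = 0.347), so that the opposite directions were seen on FPKM and not in recovered fragments.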

How the results depend on the processing

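Of 46 tests of members followed, 20 passed on FPKM with all libraries. Median-of-ratios scaling changed no call, and other amounts added (0.1 or 1 FPKM), other filters (none or 5 FPKM) and no variance trend changed 1 call each. The fit on the compared groups only ended 18 of the 20 calls. The 90% placing ended 10, raised 2 and turned the sign of 12, and the highest transcript only ended 3, raised 7 and turned 1. Recovered fragments raised 23 to a call, ended none and turned 1. Counts of members past the test at 1 h against 0 h, 2 in each line, became 4 in RelA(wt) cells with recovered fragments. They became 1 in each line when 90% of a transcript had to lie in the gene. Fitted on the compared groups only, they were 1 in RelA(TA2), 1 in RelA(Ser276Ala) and 0 in RelA(wt) cells. Against RelA(wt) at 1 h, RelA(TA2) had 0, but 1 with the highest transcript only, 2 with recovered fragments and 1 with the 90% placing, and RelA(Ser276Ala) had 1, but 2, 3 and, on the compared groups only, 0. At 2 h RelA(TA2) had 0, but 1 with the highest transcript and 1 with recovered fragments, and RelA(Ser276Ala) had 1, but 3 with recovered fragments and 0 with the 90% placing or the compared groups only. Leaving out 1 library gave 1 to 2 for RelA(Ser276Ala) at 1 h against 0 h, 0 to 1 for RelA(TA2) against RelA(wt) at 1 h and at 2 h, and 1 to 2 at 1 h and 0 to 1 at 2 h for RelA(Ser276Ala) against RelA(wt).

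The 90% placing drops the 2570-base Nfkbia transcript of RelA(wt) replicate 1 at 1 h. Nfkbia in RelA(wt) cells then changed sign, to -0.68 at 1 h against 0 h and 1.44 at 2 h against 1 h, as did its differences from RelA(wt) at 1 h (3.77 in RelA(TA2), 3.63 in RelA(Ser276Ala)) and its differences in response (4.25 and 4.37 at 1 h against 0 h, -2.67 and -2.90 at 2 h against 1 h). It also turned Nfkbiz in RelA(TA2) against RelA(wt) at 2 h (-0.32) and, for Nfkbie, RelA(TA2) at 2 h against 0 h (-0.97) and 1 h (-0.55) and against RelA(Ser276Ala) at 2 h (-0.87), for which the cause was not tested. Bcl3 in RelA(wt) cells at 2 h against 0 h turned to 0.02 with the highest transcript only and 1.36 with recovered fragments, and ranged from -1.34 to 0.32 with 1 library left out, turning without RelA(wt) replicate 1 of 0 h. Leaving out 1 library also turned the sign of Nfkbiz in RelA(Ser276Ala) at 2 h against 0 h (-0.09 to 0.44) and RelA(TA2) against RelA(wt) at 2 h (-0.22 to 0.47), of Nfkbie in RelA(Ser276Ala) at 2 h against 0 h (-0.31 to 0.33), and of the Nfkbia difference in response at 1 h (-0.91 to 0.33 in RelA(TA2), -0.79 to 0.45 in RelA(Ser276Ala)).

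With the replicate block, RelA(Ser276Ala) at 1 h against 0 h had 1 member past the test, since Nfkbiz was lost (1.71, adjusted p = 0.0562), and Nfkbia in RelA(Ser276Ala) at 2 h against 1 h was lost (-1.46, adjusted p = 0.0693). No other call changed. Same-numbered libraries correlated in their deviations by -0.0739 to 0.0991 on FPKM and -0.0922 to 0.282 in recovered fragments over 36 pairs, and the numbers were not taken to pair libraries.

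With 2 libraries per condition, the levels of Nfkbie and Bcl3 rested on 24 to 659 and 47 to 492 fragments per library.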
